A study of Mus musculus with 4 samples.

Results

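The cytosolic ribosomal protein genes were taken by name from the gene table: symbols of the form Rpl or Rps with a number, together with Rplp0, Rplp1, Rplp2 and Rpsa, leaving out pseudogene names and the Rps6k kinases. The rule found 92 of the 51912 genes in the table, and 87 of them were among the 15643 genes with enough counts to be tested. By product they were 46 proteins of the large 60S subunit, 31 of the small 40S subunit, 14 paralogs or gene copies and Rps19bp1, which matched by name only and encodes a binding partner of Rps19. All 77 genes of the 60S and 40S subunits were tested, and are called the core genes here. Of the paralogs and copies, 9 were tested. Rpl10l, Rpl6l, Rps12l1 and Rps3a2 were listed at 0 in all 4 libraries, and Rps3a3 had 1.02 and 6.41 expected counts in BML-260 A and B and 0 in both vehicle libraries.

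Each cytosolic ribosome carries 1 copy of nearly every ribosomal protein, so cells keep these transcripts at high and similar levels. In mammals most of these mRNAs begin with a cytosine followed by a run of pyrimidines, the 5′ terminal oligopyrimidine (TOP) motif, through which mTORC1 signalling and the RNA-binding protein Larp1 control their translation. The family is also known for its very many processed pseudogenes, intronless copies of the mRNA that can share reads with the parent gene.

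The RNA came from the subcutaneous white fat of C57BL/6 mice, 8 weeks old, that received either BML-260, which inhibits the dual-specificity phosphatase JSP-1 (Dusp22), or DMSO as vehicle. There were 2 libraries per treatment, BML-260 A and B and vehicle A and B, with totals of 19999836 to 23726781 expected counts. The series speaks of 8 mice, 4 per treatment; the dose, the duration and the mice behind each library are not stated in the sources used here. The p-values therefore reflect spread between libraries, which may be technical. Fewer cells of a type and less RNA per cell cannot be told apart in bulk tissue.

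The libraries differed in the levels of transcripts that mark other tissues and cell types. Summed over 12 skeletal muscle markers, the level was 30840 and 47580 CPM, a count scaled to library size, in BML-260 A and B, against 380.1 and 10980 CPM in vehicle A and B, and all 12 were higher with BML-260. Summed over 8 B cell markers it was 181.9 and 3.14 CPM in BML-260 A and B, against 1.80 and 2.77 CPM in vehicle A and B, where 2 of the 8 (Blk and Fcmr) were at 0 in vehicle A. Over 9 T and NK cell markers it was 121 and 12.7 CPM with BML-260 and 8.12 and 21.96 CPM with vehicle, and over 5 macrophage markers 1776 and 810.3 CPM against 1063 and 1212 CPM. The 8 adipocyte markers, which check the labelled tissue, summed to 22790 and 33370 CPM with BML-260 and to 38760 and 38890 CPM with vehicle, and all 8 were lower with BML-260. The 3 endothelial markers summed to 320.7 and 426.9 CPM with BML-260 and 506.5 and 458.8 CPM with vehicle, while the 4 ductal epithelial markers were near 0, at 0.911 CPM or less in every library. BML-260 A therefore carried most of the lymphocyte transcripts, and both BML-260 libraries carried more muscle transcripts than either vehicle library. The part of these markers in the results below was not tested, except where a value is given.

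The ribosomal protein transcripts took a slightly smaller share of the BML-260 libraries on average, and most of that difference came from 1 library. The 92 genes held 2.14% of all expected counts in BML-260 A (exact binomial 95% interval 2.13% to 2.14%) and 1.61% in BML-260 B (1.61% to 1.62%). In vehicle A they held 2.32% (2.31% to 2.33%) and in vehicle B 2.03% (2.02% to 2.03%). BML-260 B was the lowest of the 4, while BML-260 A lay between the vehicle libraries, so the groups overlapped. These intervals cover counting error only and are far narrower than the gaps between libraries of 1 group. The mean difference was -0.299 percentage points with a pooled SD of 0.300, as large as the spread; without BML-260 B it was -0.037.

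**Figure D1:**
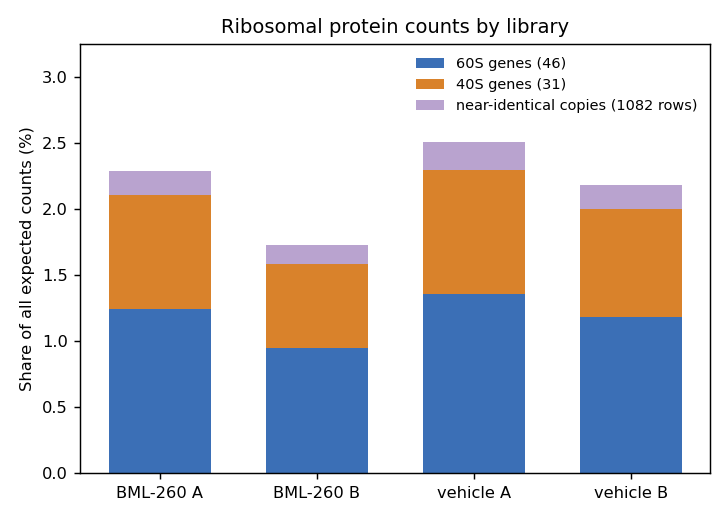
Share of all expected counts (y axis, percent) in the 46 genes of the 60S subunit, the 31 genes of the 40S subunit and 1082 near-identical copies, stacked for each library (x axis). BML-260 B has the shortest bar, and BML-260 A stands between vehicle B and vehicle A.

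Both subunits showed this pattern. The 60S genes held 1.24% and 0.943% of counts in BML-260 A and B, against 1.35% and 1.19% in vehicle A and B. The 40S genes held 0.868% and 0.639% in the BML-260 libraries, against 0.939% and 0.816% in the vehicle libraries. Both subunits gave the same order of libraries, with BML-260 B lowest and vehicle A highest.

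Per gene, no ribosomal protein transcript passed the test between treatments. With edgeR's quasi-likelihood test and Benjamini-Hochberg adjustment over all tested genes, 0 of the 87 genes had an adjusted p under 0.05 (range 0.389 to 0.998), where the background over all genes was 0.00639%. At an unadjusted p under 0.05 there were 6 lower and 0 higher, with backgrounds of 3.61% lower and 7.45% higher. DESeq2 called 1 gene, Rplp2, against a background of 2.76%, and limma-voom called 0 (background 0.00639%). The authors' deposited table called 0. Its background of 0.688% is over all 51912 genes listed, most of them not tested here, so it is not on the same footing. The log2 fold changes, BML-260 over vehicle, were nonetheless mostly small and on 1 side. Of the 87 genes, 78 (89.7%) lay below 0, against 47.5% of all tested genes, and the median was -0.18, an 11.6% lower level, against 0.02 for all tested genes. The genes are measured in the same 4 libraries and share their depth and tissue makeup, so they are not independent replicates of this shift.

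The spread between libraries was of the same size as that shift. The lowest of the 4 values was in BML-260 B for 72 of the 87 genes and in BML-260 A for 10, and the highest was in vehicle A for 62 and in vehicle B for 9. The median gene was 0.22 higher in BML-260 A than in BML-260 B on the log2 scale, more than the 0.18 between treatments, and 0.14 higher in vehicle A than in vehicle B. The median log2 fold change was -0.07 without BML-260 B, -0.32 without BML-260 A, -0.12 without vehicle A and -0.25 without vehicle B. Both BML-260 libraries lay below both vehicle libraries for 33 genes, with a background of 21.5%, and above them for 5, with a background of 22.9%; the groups overlapped for the other 49. With 1 library left out, where a lone library makes separation easier, the lower count was 79 without BML-260 A (background 35.1%), 36 without BML-260 B (37.9%), 36 without vehicle A (31.3%) and 68 without vehicle B (35.6%). Without BML-260 B the members were thus near the background.

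**Figure D2:**
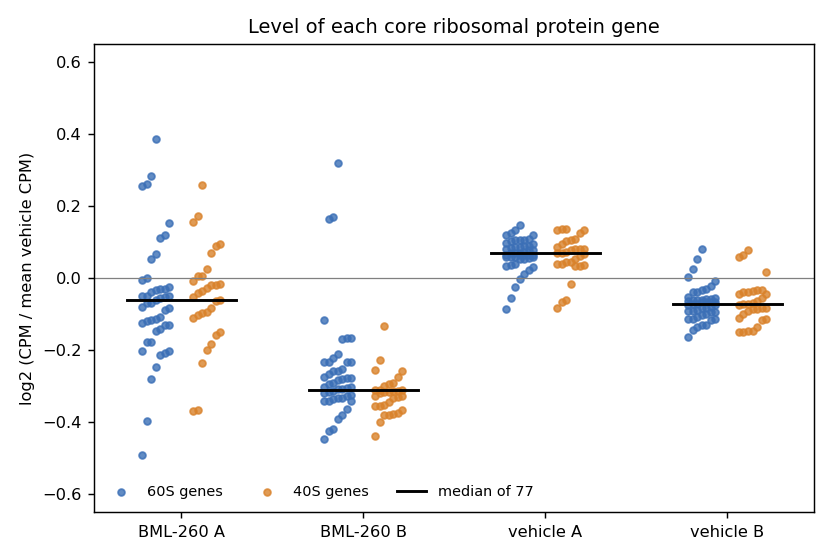
Level of each of the 77 core genes in each library (x axis), as the log2 ratio of its CPM to its mean vehicle CPM (y axis); points are genes, coloured by subunit, and black lines are medians. The cloud of BML-260 B lies lowest, with the lowest value of 70 of the 77 genes, while BML-260 A spreads widely across 0.

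Among the 46 genes of the 60S subunit, 40 lay below 0, with a median log2 fold change of -0.18 and a range of -0.46 to 0.28, and 3 were lower at an unadjusted p under 0.05. Among the 31 genes of the 40S subunit, 30 lay below 0, with a median of -0.17 and a range of -0.39 to 0.02, and 2 were lower at that p. Over all tested genes, 47.5% lay below 0 and 3.61% were lower at that p. The central 50% of the core genes spanned only -0.22 to -0.15. Most core genes thus had nearly the same fold change, and few lay apart.

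The 6 members with an unadjusted p under 0.05 all had both BML-260 libraries below both vehicle libraries. That p favours genes whose libraries of 1 group are close to each other, so the closeness of their values is part of how they were chosen. Rplp2, an acidic protein of the ribosomal stalk that recruits elongation factors, had 229.9 and 241.6 CPM in BML-260 A and B and 335.9 and 310.5 CPM in vehicle A and B. Its means were 236 ± 8.26 CPM with BML-260 and 323 ± 17.9 CPM with vehicle (SD, n = 2 each). The groups did not overlap, and the log2 fold change was -0.46 ± 0.15 (SE; edgeR adjusted p = 0.395). DESeq2 gave -0.46 with an adjusted p of 0.0274, and the authors' deposited table gave -0.45 with an adjusted p of 0.0514, just outside the threshold.

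Rps19, the 40S protein most often mutated in Diamond-Blackfan anaemia in humans, had 178.8 and 175.0 CPM in BML-260 A and B, against 244.3 and 217.8 CPM in vehicle A and B. Its log2 fold change was -0.39 ± 0.14 (SE; edgeR adjusted p = 0.428). Rps21, a small protein of the 40S subunit, had 80.7 and 81.4 CPM with BML-260, against 107 and 101 CPM with vehicle. No library of 1 group reached into the other for either gene, and the Rps21 log2 fold change was -0.36 ± 0.11 (SE; edgeR adjusted p = 0.389), the smallest adjusted p of the family.

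Rpl39, one of the smallest ribosomal proteins, which lines the peptide exit tunnel, had 61.2 and 64.4 CPM in BML-260 A and B, against 85.2 and 76.1 CPM in vehicle A and B. Rpl36, a 60S protein, named here after its values were seen to complete the 6, had 119.7 and 115.2 CPM with BML-260, against 148.7 and 142.2 CPM with vehicle. The log2 fold changes were -0.36 ± 0.12 and -0.31 ± 0.12 (SE), again with groups that did not overlap; neither passed adjustment in edgeR (adjusted p = 0.403 and 0.448). Members with like fold changes fell outside that p. Rps19bp1 had 12.3 and 14.2 CPM with BML-260, against 18.5 and 16.5 CPM with vehicle (-0.40 ± 0.16, SE), and Rps28, a 40S protein, had 53.2 and 44.6 CPM with BML-260, against 57.7 and 63.2 CPM with vehicle (-0.31 ± 0.14); neither overlapped between groups. The paralog Rpl22l1 is the last of the 6 and is given with its partner below. The count of 6 changed when single libraries were left out. The share of all tested genes at an unadjusted p under 0.05 in those fits is not given. The change therefore cannot be set against a background.

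**Figure D3:**
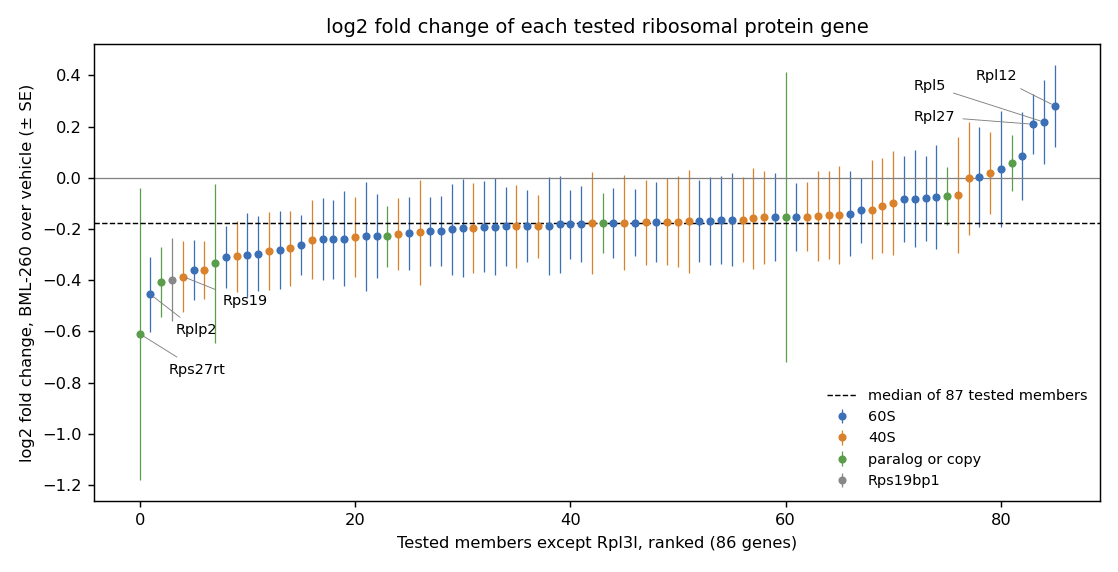
log2 fold change, BML-260 over vehicle, with its SE (y axis) of 86 tested genes in rank order (x axis); Rpl3l, at 2.63, is off the scale. Most points lie close to the dashed median of -0.18, Rps27rt and Rplp2 lie lowest, and Rpl27, Rpl5 and Rpl12 highest.

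Of the members named for a fixed role, Rplp2 and Rps19 lay among the lowest, as given above, Rpl5 lay above 0 in its own row, and the other 8 lay between -0.24 and -0.08. Rplp0, the stalk base and a common reference gene in quantitative PCR, had 812.8 and 660.5 CPM in BML-260 A and B, against 804.2 and 747.8 CPM in vehicle A and B, with a log2 fold change of -0.08 ± 0.20 (SE). The BML-260 libraries enclosed the vehicle libraries. Rplp1, the partner of Rplp2 in the stalk, had 438.8 and 370.1 CPM with BML-260, against 483.7 and 446.3 CPM with vehicle, a log2 fold change of -0.20 ± 0.18. Rpsa, a 40S protein also known as the laminin receptor, had 727.0 and 620.2 CPM with BML-260, against 850.5 and 710.6 CPM with vehicle (-0.21 ± 0.21).

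Rps6, the 40S protein that S6 kinases phosphorylate, had 451.5 and 342.1 CPM in BML-260 A and B, against 445.5 and 404.0 CPM in vehicle A and B. Rps3, a 40S protein at the mRNA entry channel, had 341.7 and 262.6 CPM with BML-260, against 333.2 and 318.2 CPM with vehicle. Both genes had BML-260 A as the highest and BML-260 B as the lowest library, with log2 fold changes of -0.10 ± 0.20 and -0.11 ± 0.19 (SE). Rplp0, Rps6, Rps3 and Rps27 had fold changes above 0 once BML-260 B was left out.

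Rpl11, which with Rpl5 binds the p53 regulator Mdm2 when ribosome assembly fails, had 276.5 and 262.8 CPM in BML-260 A and B, against 338.3 and 298.4 CPM in vehicle A and B (log2 fold change -0.24 ± 0.15, SE). Rpl41, the shortest ribosomal protein, had 353.2 and 363.1 CPM with BML-260, against 401.7 and 415.3 CPM with vehicle (-0.19 ± 0.15). Rpl13a, known in humans for a role in translational silencing outside the ribosome, had 503.9 and 379.9 CPM with BML-260, against 553.5 and 482.0 CPM with vehicle (-0.23 ± 0.21). Rpl11 and Rpl41 kept the groups apart, while Rpl13a overlapped because BML-260 A exceeded vehicle B.

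Levels per transcript length, as the authors' FPKM averaged over the 4 libraries, were high and mostly close to each other. The median core gene had 600.9 FPKM, with quartiles at 420.5 and 793.3 FPKM; the medians were 528.9 FPKM for the 60S genes and 668.0 FPKM for the 40S genes. Rplp1 was highest at 2243 FPKM, followed by Rpl13a at 1803 and Rps27, a zinc-finger protein of the 40S subunit, at 1639 FPKM. The lowest was Rpl5 at 14.4 FPKM, a 156-fold span. Among the 68 core genes with under 20% of their counts on near-identical copies (described next), the lowest was 133.1 FPKM and the span 16.9-fold.

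Several rows of the table held far fewer counts than a near-identical genomic copy of the same gene. A search of the longest transcript of every annotated gene found 1082 genes with at least 90% identity over at least 60% of their length to 81 of the members; 719 of these copies had no counts and 25 were tested. Over the 4 libraries, 14 members had at least 5% of the pooled member and copy counts on copies, and 9 had at least 20%. The share was 96.7% for Rps12, 95.9% for Rpl5, 93.5% for Rpl12, 77.6% for Rpl27, 55.4% for Rpl27a and 54.9% for Rpl10. For these 6 genes the row carrying the parent's symbol held the smaller part of the counts.

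Rpl5 and Rps12 show why counting can divide these reads. The Rpl5 gene, on GRCm38 at chr5:107900502-107909005 (plus strand), has introns, and its copy Gm15500, at chr7:114705217-114706235 (minus strand), is annotated as a transcribed processed pseudogene; all 894 coding bases are identical. The Rps12 gene lies at chr10:23785183-23787275 (minus strand) and its copy Rps12-ps3 at chr19:59322290-59322783 (plus strand), with all 399 coding bases identical. The first 60 coding bases of each are given, in lower case throughout since no base differs between gene and copy:
Rpl5: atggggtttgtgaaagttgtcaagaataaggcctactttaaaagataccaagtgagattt
Gm15500: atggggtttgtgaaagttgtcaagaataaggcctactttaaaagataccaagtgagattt
Rps12: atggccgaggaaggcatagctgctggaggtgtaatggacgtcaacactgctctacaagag
Rps12-ps3: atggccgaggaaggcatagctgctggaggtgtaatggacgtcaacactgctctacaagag
A read within such a stretch fits both loci equally, so the division between the rows is the counting tool's estimate. How much of a copy's counts comes from its own transcription was not tested.

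Of the 5 members with both BML-260 libraries above both vehicle libraries, Rpl5, Rpl12 and Rpl27 were among these divided rows; Rpl3l and Rpl7l1, described with the paralogs, were not. Rpl5, a 60S protein that carries 5S rRNA, had 13.9 and 16.03 CPM in BML-260 A and B, against 13.1 and 12.7 CPM in vehicle A and B, a log2 fold change of 0.22 ± 0.16 (SE). Its copy Gm15500 had 337.8 and 282.0 CPM with BML-260, against 364.8 and 306.4 CPM with vehicle (-0.11 ± 0.18). The parent row lay higher in both BML-260 libraries while the far larger copy row overlapped between groups, and their sum with all other copies gave -0.10 ± 0.18.

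Rpl12, a 60S protein at the base of the stalk, had 18.8 and 16.2 CPM in BML-260 A and B, against 15.1 and 13.7 CPM in vehicle A and B, the highest core log2 fold change at 0.28 ± 0.16 (SE; edgeR adjusted p = 0.567). Its copy Gm10275 had 263.8 and 192.3 CPM with BML-260, against 260.9 and 199.2 CPM with vehicle, and the sum of gene and copies gave 0.01 ± 0.22. Rpl27, another 60S protein, had 42.9 and 40.3 CPM with BML-260, against 36.9 and 35.0 CPM with vehicle (0.21 ± 0.12), and with its copies -0.07 ± 0.15. For all of Rpl5, Rpl12 and Rpl27 the separation of the groups in the parent row was absent from the sum.

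Rpl10, a late-joining 60S protein on the X chromosome, had 252.9 and 172.9 CPM in BML-260 A and B, against 226.6 and 189.1 CPM in vehicle A and B (log2 fold change 0.03 ± 0.23, SE). Its copy Rpl10-ps3, on chromosome 9, had 200.2 and 235.6 CPM with BML-260, against 307.0 and 274.7 CPM with vehicle (-0.42 ± 0.16). The share on copies was 44.2% in BML-260 A, 57.7% in BML-260 B, 57.5% in vehicle A and 59.2% in vehicle B. BML-260 A alone stood apart, and the cause was not tested. Summed, the CPM were 453.1 and 408.4 with BML-260, against 533.7 and 463.9 with vehicle, a log2 fold change of -0.21 ± 0.18 without overlap of the groups.

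Rps12, a 40S protein, had 14.4 and 11.0 CPM in its own row in BML-260 A and B, against 13.6 and 14.7 CPM in vehicle A and B (log2 fold change -0.16 ± 0.20, SE). Its copy Rps12-ps3 had 381.6 and 330.5 CPM with BML-260, against 464.3 and 390.3 CPM with vehicle (-0.26 ± 0.18). The parent row overlapped between groups, and the copy row did not. Gene and copies together gave -0.26 ± 0.18.

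**Figure D4:**
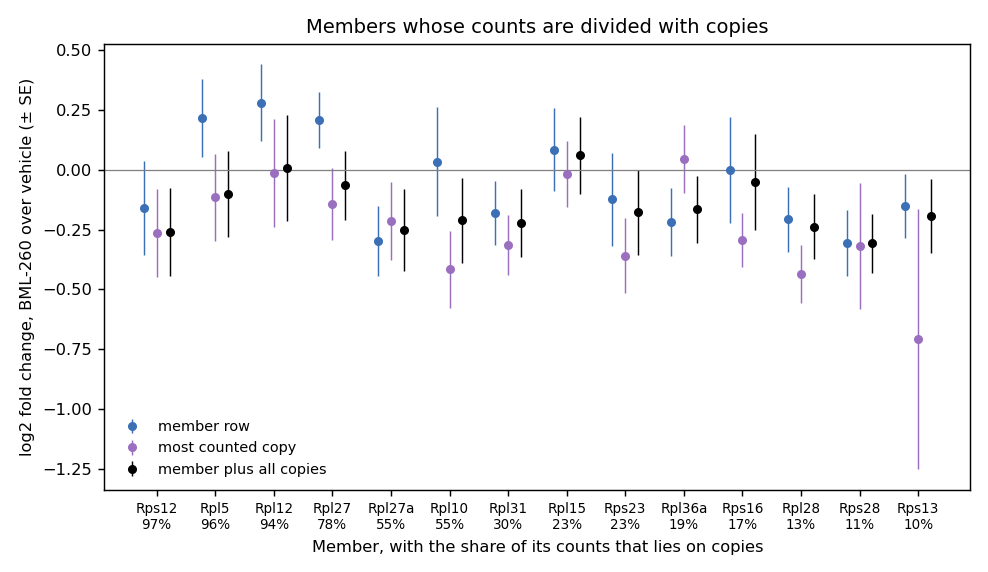
log2 fold change, BML-260 over vehicle, with its SE (y axis) of the 14 members with at least 5% of their counts on copies (x axis, with that share): the member's own row, its most counted copy, and member plus all copies. Rpl5, Rpl12 and Rpl27 are above 0 in their own rows and at -0.10, 0.01 and -0.07 with copies added.

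With the copies of every member added to it, an alternative chosen after seeing the data, the family became more even. In that fit of 15618 genes, 81 of 87 members lay below 0 and 6 above, and the median was -0.18. The SD of the log2 fold changes over the core genes was 0.121 in the rows as deposited and 0.088 with copies added, and the highest core value was 0.06, of Rpl15, a 60S protein. Still 0 members were called by edgeR, and 6 were lower at an unadjusted p under 0.05. The shares of all genes below 0 and lower at that p in this fit are not given. Added to the members' counts, the copies brought the share of the libraries to 2.32% and 1.76% in BML-260 A and B, against 2.54% and 2.21% in vehicle A and B, in the same order as before.

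The paralogs replace or accompany a core protein in particular tissues. Rpl3l, the striated-muscle counterpart of Rpl3 at the peptidyl transferase centre, stood apart from all other members. It had 53.3 and 78.1 CPM in BML-260 A and B, against 0.854 and 20.2 CPM in vehicle A and B, from 1107 and 1715 expected counts with BML-260 and 18 and 468 with vehicle. Both BML-260 libraries lay above both vehicle libraries, which themselves differed widely, and the log2 fold change was 2.63 ± 1.14 (SE; edgeR adjusted p = 0.474). Without vehicle B, which leaves only the vehicle library with 18 counts, the log2 fold change was 6.26. The authors' deposited table gave a much smaller log2 fold change for Rpl3l, 0.30, with an adjusted p of 0.832.

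Rpl3l followed the order of the muscle markers in the 4 libraries: BML-260 B highest, then BML-260 A, vehicle B and vehicle A. The muscle creatine kinase gene Ckm, one of those markers, had 4019 and 6304 CPM in BML-260 A and B, against 42.6 and 1476 CPM in vehicle A and B. Over the 12 markers the median log2 fold change was 2.77, with a range of 2.41 to 2.94 that holds the 2.63 of Rpl3l. Rpl3 itself had 444.2 and 362.8 CPM with BML-260, against 494.2 and 424.9 CPM with vehicle, with overlapping groups (-0.19 ± 0.19). Per length, Rpl3l made up 10.2% and 17.1% of the summed FPKM of the pair in BML-260 A and B, against 0.16% and 4.24% in vehicle A and B.

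Rpl22l1, which can take the place of the 60S protein Rpl22, had 15.4 and 15.0 CPM in BML-260 A and B, against 20.9 and 19.5 CPM in vehicle A and B. Its log2 fold change was -0.41 ± 0.14 (SE; edgeR adjusted p = 0.413), without overlap of the groups. Rpl22 had 92.3 and 90.4 CPM with BML-260, against 114 and 105 CPM with vehicle, also without overlap (-0.26 ± 0.12; adjusted p = 0.484 in edgeR). Rpl22l1 made up 14.4% and 14.5% of the FPKM of the pair with BML-260, against 16.2% and 16.2% with vehicle. The difference of the log2 ratio was -0.19, with a pooled SD of 0.01 on FPKM; on counts it was -0.15. No test was made, since an exact permutation test of 2 libraries against 2 could not reach 0.05.

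The other pairs kept their proportions within the spread of the libraries or close to it. Rps27l, known in humans as a p53-inducible paralog of Rps27, made up 9.78% and 13.8% of the FPKM of its pair in BML-260 A and B, against 10.9% and 12.1% in vehicle A and B. Rpl39l, best known from mouse testis, made up 2.25% and 2.11% of its pair with BML-260, against 1.73% and 2.56% with vehicle, at only 2.19 to 3.198 CPM. In both pairs the vehicle values lay inside the BML-260 range or enclosed it.

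Rps4l is annotated as a transcribed processed pseudogene. It had 28.8 and 31.2 CPM with BML-260, against 34.6 and 35.6 CPM with vehicle, without overlap (log2 fold change -0.23 ± 0.12, SE). Rps4l made up 6.14% and 7.93% of its pair with Rps4x in BML-260 A and B, against 6.54% and 8.06% in vehicle A and B. Rpl36al made up 41.5% and 45.5% of its pair with Rpl36a with BML-260, against 39.8% and 42.4% with vehicle. Rpl7l1 made up 4.87% and 5.85% of its pair with Rpl7 with BML-260, against 4.20% and 4.82% with vehicle, the one of these pairs whose groups did not overlap. Its log2 ratio differed by 0.26, with a pooled SD of 0.17, since Rpl7l1 was nearly level (0.06 ± 0.11, SE) while Rpl7 had a log2 fold change of -0.18 ± 0.19.

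Of the members whose symbols end in rt, for retrotransposed, Rps27rt had 0.963 and 3.10 CPM in BML-260 A and B. It had 3.32 and 2.90 CPM in vehicle A and B, the lowest log2 fold change of the family, with a wide error (-0.61 ± 0.57, SE). It is identical to Rps27 over 341 of its 374 bases, so its counts are an estimate. Rpl37rt had 2.99 and 8.02 CPM with BML-260, against 8.16 and 4.11 CPM with vehicle (-0.15 ± 0.57). Neither separated the groups.

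**Figure D5:**
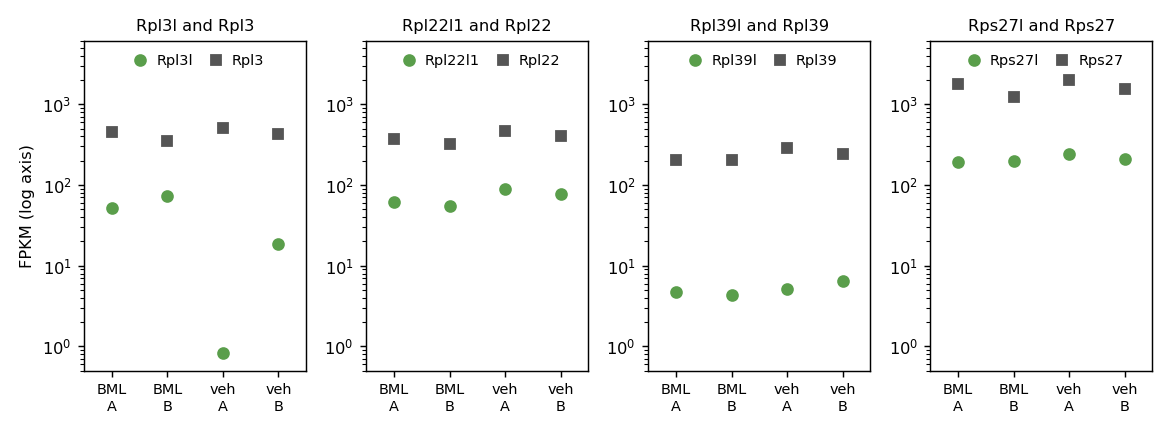
FPKM on a log axis (y axis) of 4 paralogs (circles) and their core partners (squares) in each library (x axis). Rpl3l spans 0.818 to 73.2 FPKM across libraries, while Rpl3, Rpl22l1, Rpl22 and the other pairs vary far less.

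The TOP motif lies at the very start of the transcript, and the RefSeq promoter table (GRCm38.p6) held 57 of the 77 core genes. At the annotated start base itself, 13 of the 57 (22.8%) had a C followed by 4 pyrimidines (C or T), against 3.01% of 27025 genes of the table. An unbroken run of at least 8 pyrimidines within 10 bases of the start on either side was present in 36.8%, against 9.25% of all genes; on the other strand it was present in 3.51%, against 10.4%. The motif CCGGAAG, of the kind bound by ETS factors, was found on either strand of the 300-base window in 42.1% of the core genes and in 9.93% of all genes, and AAGATGGC, of the kind bound by YY1, in 8.77% and 3.19%. These matches describe the letters in the window, not binding.

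The windows of 3 core genes and of Rpl3l are shown because the TOP motif is defined at this position. Each gives 20 bases before the annotated start and 20 bases from it, with the unbroken run of pyrimidines that holds the start base in capitals; Rplp2 is at chr7:141447631-141447670 (plus strand), Rps21 at chr2:180257359-180257398 (plus strand), Rps6 at chr4:86857348-86857387 (minus strand) and Rpl3l at chr17:24727806-24727845 (plus strand):
Rplp2: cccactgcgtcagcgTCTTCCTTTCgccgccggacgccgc
Rps21: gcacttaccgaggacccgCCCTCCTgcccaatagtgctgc
Rps6: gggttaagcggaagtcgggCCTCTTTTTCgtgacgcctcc
Rpl3l: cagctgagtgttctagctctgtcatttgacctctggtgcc
In the windows shown, Rplp2, Rps21 and Rps6 carry a pyrimidine run at the start, and Rpl3l has none there. A second annotated start of Rps21 has a run of only 1 base, and a second of Rpl3l has none. Rplp2 and Rps21 were among the lowest log2 fold changes and Rps6 was not. Genes with such a run at an annotated start thus did not share 1 value. For the 13 core genes with the C and 4 pyrimidines the median log2 fold change was -0.17 (range -0.46 to 0.09). For the other 44 it was -0.17 (range -0.39 to 0.28). This split rests on the exact annotated start base. Rpl27a and Rpl7a, with unbroken runs of 20 and 21 pyrimidines over that base, fall among the 44. These medians therefore do not compare TOP mRNAs with others.

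Transcript length and base composition were compared with the differences over the 77 core genes, as a description across genes that share libraries. The log2 fold change had Pearson's r of -0.19 and Spearman's rho of -0.19 with GC content, and 0.17 and 0.31 with length. The difference between BML-260 A and B had -0.11 and -0.07 with GC content, and 0.10 and 0.29 with length. Length and GC content were each the median over the annotated protein-coding transcripts of a gene. These medians ranged from 41.3% to 60.8% GC and from 368 to 3706 bases.

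Genes that serve the ribosome were measured beside its proteins. Fau, a ribosomal protein gene whose name lies outside the pattern, which encodes the 40S protein eS30 fused to a ubiquitin-like domain, had 38.4 and 37.2 CPM in BML-260 A and B, against 49.7 and 56.1 CPM in vehicle A and B (log2 fold change -0.49 ± 0.12, SE; unadjusted p = 0.00982, edgeR adjusted p = 0.345). Fau kept the groups apart, while Rack1, the scaffold protein of the 40S head, overlapped (-0.03 ± 0.21). Neither was called in edgeR.

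The 15 translation factors and other genes with TOP mRNAs had a median log2 fold change of -0.04. In edgeR 0 passed an unadjusted p under 0.05 in either direction (backgrounds 3.61% lower and 7.45% higher). Eef1a1, the factor that brings aminoacyl-tRNA to the ribosome, had 3727 and 3271 CPM in BML-260 A and B, against 3912 and 3474 CPM in vehicle A and B, with overlap. Eef2, the translocation factor, had 1670 and 1668 CPM with BML-260, against 1670 and 1685 CPM with vehicle. Eif4b was higher in both BML-260 libraries (0.20 ± 0.13, SE). Naca was higher in both by CPM (0.20 ± 0.16) but lower in both by FPKM, at 335.1 and 323.8 FPKM in BML-260 A and B, against 427.1 and 363.4 FPKM in vehicle A and B. Eif3f was lower in both BML-260 libraries (-0.21 ± 0.12).

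The 29 tested ribosome assembly factors had a median of 0.07, with 18 above 0 and 11 below. The share below 0 was 37.9%, against 47.5% of all tested genes. In edgeR 1 was higher at an unadjusted p under 0.05 (background 7.45%). That gene was Heatr1, a factor of the early small-subunit precursor, with 23.6 and 21.9 CPM in BML-260 A and B, against 16.8 and 17.7 CPM in vehicle A and B (0.40 ± 0.13, SE; edgeR adjusted p = 0.407). The 14 RNA polymerase I genes had a median of 0.05. None passed an unadjusted p under 0.05 in edgeR (backgrounds 3.61% lower and 7.45% higher). Polr1a, its largest subunit, was higher in both BML-260 libraries (0.34 ± 0.15), while Polr1c and Polr1d, which are shared with RNA polymerase III, were lower in both (-0.28 ± 0.13 and -0.26 ± 0.12).

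The 21 genes of mTORC1 and its translation arm had a median of 0.15, with 16 above 0. The share below 0 was 23.8%, against 47.5% of all tested genes. In edgeR 4 had an unadjusted p under 0.05 on the higher side (background 7.45%) and 0 on the lower, and none was called. Deptor, an inhibitor of mTOR, had 197.1 and 250.3 CPM in BML-260 A and B, against 152.5 and 142.8 CPM in vehicle A and B (log2 fold change 0.60 ± 0.17, SE), and was called only by DESeq2 (adjusted p = 0.0449). Sesn2, a leucine sensor that restrains mTORC1, had 29.1 and 26.6 CPM with BML-260, against 16.6 and 19.6 CPM with vehicle (0.62 ± 0.15). The kinase gene Mtor had 79.9 and 96.3 CPM with BML-260, against 67.1 and 67.6 CPM with vehicle (0.39 ± 0.13), and all of these kept the groups apart. The fourth was Rragd, a GTPase that recruits mTORC1 to the lysosome, with 42.7 and 64.5 CPM with BML-260, against 1.23 and 16.3 CPM with vehicle (2.60 ± 0.998, SE). Like Rpl3l it had the library order of the muscle markers and a log2 fold change within their range; their part in it was not tested.

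Rps6kb1, which encodes S6 kinase 1, and Larp1 overlapped between groups (0.08 ± 0.12 and 0.17 ± 0.15, SE). Eif4ebp1, the repressor of cap-dependent translation, was lower in both BML-260 libraries (-0.30 ± 0.18). The 11 snoRNA host genes, many of which also have TOP starts, had a median of -0.05. Only 1, on the lower side, had an unadjusted p under 0.05 in edgeR (background 3.61%). That gene was Snhg5, with 10.02 and 12.4 CPM in BML-260 A and B, against 17.99 and 16.9 CPM in vehicle A and B (-0.64 ± 0.18; edgeR adjusted p = 0.361). No difference between any of these lists and the ribosomal protein genes was tested.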

How the data were processed

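Per the labels' protocols, total RNA was isolated with TRIzol and made into Illumina libraries. The authors deposited 1 table of expected counts per gene, estimated and not normalized; between 76.5% and 77.8% of its nonzero values were exactly whole. The FPKM values were computed by the authors, per the file headers. The authors also deposited group means, FPKM means on a log2 scale, and log2 fold changes of their own test. The p-values and adjusted p-values of that test were deposited by the authors too. Tools listed in the submitters' processing notes are HISAT2 2.1.0 and RSEM 1.2.31, with DESeq2 1.10.1 and the build GRCm38.p5; the annotation and strand setting are not given in the sources used here. Overlapping and near-identical genes therefore have uncertain counts.

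Expected counts were rounded to whole numbers, filtered with edgeR's filterByExpr and scaled with TMM factors, and CPM are TMM-scaled. All 15643 genes kept were tested together with edgeR 4.0.16 quasi-likelihood (R 4.3.3) on treatment alone, with two-sided p-values adjusted by Benjamini-Hochberg at 0.05. The fit had 2 residual and 3.28 prior degrees of freedom, and a biological coefficient of variation of 23%. Each SE was derived from the log2 fold change and its F statistic. DESeq2 1.42.0 and limma 3.58.1 (voom), other scalings and filters, leaving out each library and a replicate block were alternatives. Copies were sought with BLAST among the longest transcripts of GENCODE vM21 (GRCm38), in which all 92 members and 51633 genes of the table were found by identifier; promoters came from RefSeq (GRCm38.p6). Paralog ratios are on FPKM.

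The members and gene lists were chosen with earlier results of these data known. Genes were named by a rule: the paralogs and their partners, 11 members of fixed role, the 5 smallest unadjusted p-values per direction, the 3 largest and the 3 smallest log2 fold changes, the 3 highest and 3 lowest FPKM, every member called by any tool, and, of each other list, the 3 smallest p-values and 10 fixed genes. A few others are named where a count or the search for copies singled them out after their values were seen. A gene of these lists is not reported here.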

Additional observations from a re-analysis of the deposited data

Results flagged for a closer look

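Rows outside the 92 members held counts on sequence that is near-identical to them. Over the 4 libraries, 157131 expected counts lay on near-identical copies of the members, which the named rows do not include. They made up 0.184% and 0.147% of all counts in BML-260 A and B, against 0.217% and 0.180% in vehicle A and B. Of the 25 copies with enough counts to be tested, 18 had log2 fold changes below 0, against 47.5% of all tested genes. Their counts rest in part on the counting tool's division of reads shared with the members, so they are not a separate observation.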

How the results depend on the processing

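No member was called under median-of-ratios scaling, library totals, either other filter, the replicate block, limma-voom or with copies added; DESeq2 called 1 (Rplp2), and leaving out 1 library called 0 to 1 (Rpl3l, without vehicle B). Leaving out 1 library gave a median of -0.325 to -0.069, 67 to 81 members below 0, and 0 to 9 members lower at an unadjusted p under 0.05, with a share difference of -0.561 to -0.037 percentage points. In these fits with 1 library left out, 48.7% to 52.8% of all tested genes lay below 0. The share of all tested genes lower at that p in them is not given. The count of members at that p therefore cannot be set against a background. With 1 library left out, members lower without overlap numbered 36 to 79 (68 without vehicle B). The median was -0.229 with library totals and -0.192 to -0.181 under the other settings. With the replicate block the median was -0.181 and 3 members, not 6, were lower at an unadjusted p under 0.05 in edgeR. The share of all genes passing in that fit is not given. Over all tested genes, deviations of libraries with the same letter had r = -0.059. That value cannot exclude a batch shared by letter. The median member was higher in A than in B with BML-260 (0.216) and with vehicle (0.139), on the log2 scale.

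Leaving out 1 library, the difference of the log2 ratio to the partner ran from 1.793 to 6.586 for Rpl3l, -0.238 to 0.341 for Rpl39l, -0.262 to 0.298 for Rps27l and -0.259 to 0.138 for Rps4l; on counts that of Rpl22l1 was -0.146. The log2 fold change crossed 0 on leaving out 1 library for Rps27 (-0.392 to 0.005), Rplp0 (-0.248 to 0.067), Rps6 (-0.328 to 0.088), Rps3 (-0.326 to 0.069) and Eef1a1 (-0.191 to 0.013), each above 0 only without BML-260 B. It also crossed 0 for Rack1 (-0.275 to 0.165, and 0.021 without vehicle A), Rps6kb1 (-0.009 to 0.157) and Rpl10 (-0.282 to 0.283, and -0.090 without vehicle B). Rpl10 had -0.004 with library totals and -0.212 with copies added, where Rpl5 had -0.102 and Rpl27 -0.065. For the sign changes on leaving out a library the cause was not tested. Of 648 values of 54 named genes, 631 kept their sign and side of the threshold, 14 took the other sign and 3 passed it. With 2 libraries per group, leaving 1 out leaves a lone library whose spread is assumed equal to that of the other group. Members with few counts, such as Rps27rt, Rpl37rt and Rpl39l, had wide errors.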
